A study of Arabidopsis thaliana with 6 samples.

Results

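The 150 brightest probe sets of control Arabidopsis thaliana plants are described here, first by what they encode and then by how they differed after treatment with saliva of Myzus persicae. Myzus persicae, the green peach aphid, is an insect that taps the sugar-carrying phloem with its stylets and releases saliva into the plant as it does so. The 150 were those with the highest mean of log2(signal + 16) over the 3 control arrays, out of 22746 probe sets on the array once the Affymetrix control probe sets are set aside. The rule also left out 156 probe sets by their ID, and 20 of these were at or above the level of the dimmest of the 150.

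The samples were 3 saliva arrays and 3 control arrays, each of total RNA from wild-type Col-0 plants, stock CS60000, that were 3 weeks old and had not flowered. Saliva plants carry the agent Myzus persicae saliva in their labels and control plants the agent control. All had a stratification of 24 h at 4 °C. All plants grew on soil with 16 h of light a day at 23 °C and a relative humidity of 50%. Tissue, mode of application and time of sampling are not in the labels used here. Nor do they say whether replicates were separate plants, so p-values reflect the spread among these 6 arrays and that spread may be technical.

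In a green plant, much of the messenger RNA comes from nuclear genes whose proteins work in the chloroplast. Light-harvesting proteins gather light for photosystem II and photosystem I, electron flow between the photosystems drives the plastid ATP synthase, and the Calvin cycle spends the ATP to fix carbon dioxide through RuBisCO. Photorespiration recovers the carbon that is lost when RuBisCO takes up oxygen in place of carbon dioxide.

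A probe set is a group of short probes against 1 transcript or a few, and its signal depends on those probes as well as on the amount of RNA. The order by signal is therefore an order of brightness, not of molecules, and the label "most abundant transcripts" holds only in that sense. The values of 1 probe set on different arrays come from the same probes, but their comparison still depends on how the arrays were scaled. In RNA from whole tissue, fewer cells of a type and less RNA per cell cannot be told apart.

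The control mean signal of the 150 ran from 2475 to 8920, a 3.6-fold range. They are 0.659% of the probe sets and held 17.1%, 18.1% and 18.4% of the summed signal on saliva replicates 1, 2 and 3, against 18.8%, 19.0% and 18.6% on control replicates 1, 2 and 3. The 3 saliva shares lay below the 3 control shares, and saliva replicate 1 was the lowest. The control arrays chose the 150, which favours a larger control share, so no support is drawn from this order. With the 150 chosen by the saliva mean, the mean share was 18% with saliva and 18.7% in controls.

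Only a part of the 150 could be named. The platform's annotation gave 1 gene for 36 of them, several genes for 2 and none for 112, which are unnamed here. Thus 24% of the 150 have 1 gene, against 59.4% of all probe sets. Probe sets whose ID ends in _s_at, a suffix for probes shared by several transcripts, made up 10.7% of the 150 and 4.11% of all probe sets. The functions below are those of the 36 named genes, and they need not stand for the other 114.

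**Figure D1:**
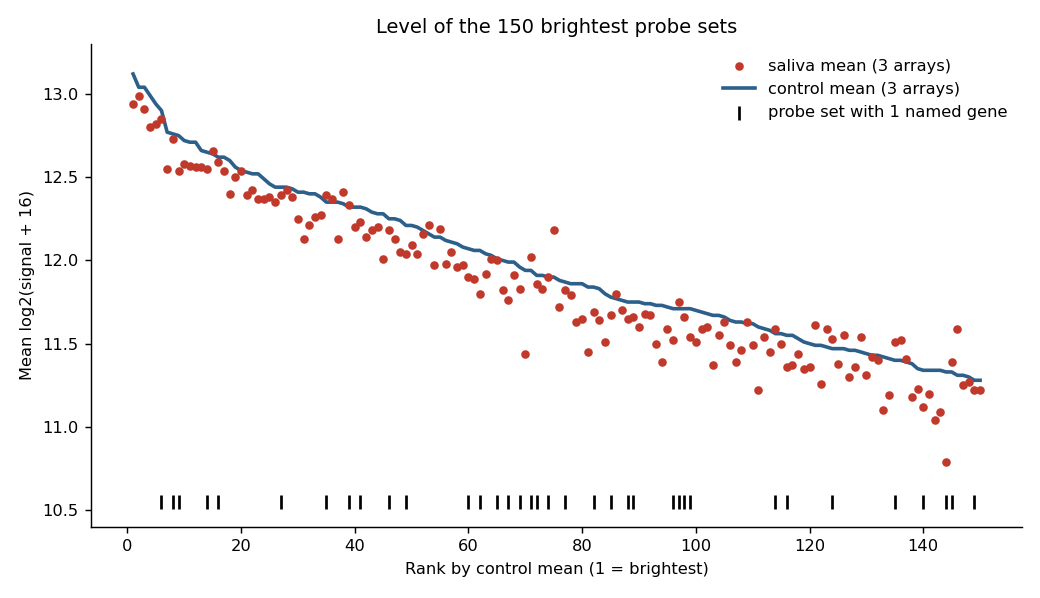
Mean log2(signal + 16) of each of the 150 probe sets, ordered by control mean, with saliva means as points, control means as a line and ticks under the probe sets with 1 named gene. The control means run from 13.12 to 11.28, and most saliva points lie a little below the line.

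The brightest probe set of all, 256309_at, is unnamed here. It had signals of 7645, 7440 and 8429 on the saliva arrays, against 8941, 9040 and 8780 on the control arrays. The 12 brightest hold 3 named genes: AT2G25510, ECS1, which encodes a cell wall protein, and LHCB4.1. At the other end of the set, the last 3 inside were 266225_at, ATHM2 and 265837_at, with control means of 11.30, 11.28 and 11.28. The first 3 outside were 261270_at, 251155_at and 261279_at, at 11.28, 11.27 and 11.27, so the limit of 150 does not fall at a gap.

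Genes of the chloroplast and of photorespiration, called plastid genes below although HPR acts in the peroxisome, were the leading function, with 18 of the 36 named genes. Of these, 11 encode proteins of the thylakoid, the membrane that holds the photosystems, 3 belong to carbon fixation and photorespiration, and 4 have other plastid roles. A further 7 named genes belong to stress and defence, and 3 encode secreted proteins or a protease. The remaining 8 hold GAPC2 of cytosolic glycolysis, the clock-controlled transcript CCL, and AT2G25510, AT3G22240, AT5G38980, AT1G09310, CP5 and AT1G67865, to which no role is given here. These groups were formed after the members were known, and the share of plastid genes among all named probe sets was not counted.

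Membership was also counted from lists of genes written by locus, which were chosen with earlier results of these data known. Of 98 genes listed for light harvesting, the photosystems, electron transport, the Calvin cycle and photorespiration, 17 were named on the array, and 11 of those 17 were among the 150 brightest. All 11 are also among the plastid genes counted above, so the counts are not independent. The further 13 lists, from aquaporins and ubiquitin to redox enzymes and glycolysis, had 98 entries and 7 named genes. Of these 7, the 2-Cys peroxiredoxin gene AT3G11630 and GAPC2 were among the 150.

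The level order was much the same on every array. Of the 150, 139, 134 and 139 were also among the 150 brightest of saliva replicates 1, 2 and 3, and 143, 143 and 141 among those of control replicates 1, 2 and 3. The choice by control mean shared 142 of its 150 with the choice by saliva mean. Across the 150, the saliva mean and the control mean correlated with r = 0.968 (n = 150 probe sets, which share the same 6 arrays). Replicates were also close: the median SD over 3 arrays was 0.11 for saliva and 0.085 for control on the log2 scale in the 150, against 0.14 and 0.13 over the 13647 probe sets tested. For the probe sets ranked 151 to 300 it was 0.11 for saliva and 0.11 for control, so the saliva value is not particular to the 150.

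The comparison of saliva with control asked whether the most intense transcripts of the plant differed after treatment. It was made by limma across all 13647 probe sets that passed a filter on dim signals, with p-values adjusted over all of them, and all 150 passed that filter. Of the 150, 0 passed an adjusted p of 0.05, where 0.0586% of all tested probe sets did. At an unadjusted p under 0.05 there were 22 lower and 2 higher with saliva, against 4.82% lower and 5.39% higher over all tested. Most differences were small and negative. The saliva mean was lower for 125 of the 150 and higher for 25, where 48.5% of all tested probe sets were lower. The median difference was -0.11 on the log2 scale, against 0.0057 over all tested, with single values from -0.55 to 0.28. The 3 saliva values lay all below the 3 control values in 41 of the 150, or 27.3%, and all above them in 1, where all tested probe sets gave 7.72% and 7.8%. Because control values chose the 150, these counts share the control arrays with the rule, and no support is drawn from them. With the 150 chosen by the mean over all 6 arrays, 120 were lower and the median was -0.11. Chosen by the saliva mean, 118 were lower and the median was -0.10.

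The size of this shift differed between the saliva arrays. Against the control mean, the median of the 150 was -0.18, -0.076 and -0.061 on saliva replicates 1, 2 and 3, and 0.0043, 0.010 and -0.023 on control replicates 1, 2 and 3. All 3 saliva arrays lay below all 3 control arrays, and saliva replicate 1 was farthest from them. The control arrays both chose the 150 and gave the reference level of this scale, so no support is drawn from that order. Without saliva replicate 1 the median was -0.067, with 112 of 150 lower. Quantile normalization, which gives every array the same distribution and so the same signal at each rank, left a median of -0.013 with 84 of 150 lower. It holds the brightest ranks nearly equal by construction, so a common shift of the 150 cannot be judged from it. Of the 36 named genes, the difference changed sign in 12 under quantile normalization and in 7 without saliva replicate 1. With the same sign, it was smaller by over 1.5 times in 14 and 13, and larger by over 1.5 times in 9 and 4, in the same order.

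**Figure D2:**
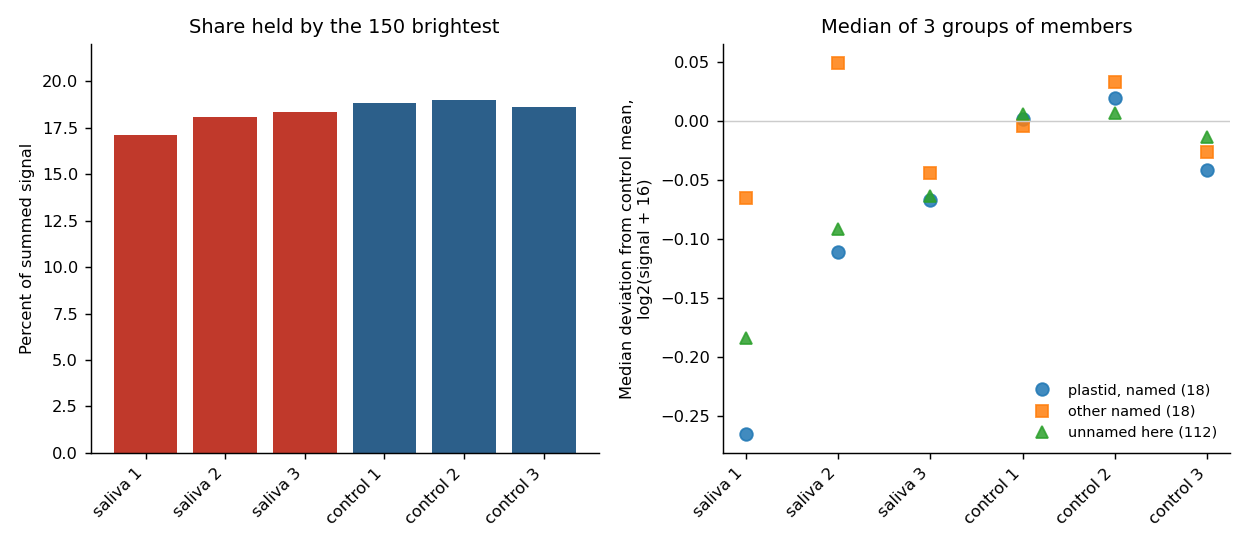
Left, percent of the summed signal held by the 150 brightest probe sets on each array, with saliva arrays first. Right, median deviation from the control mean, in log2(signal + 16), for 18 named plastid members, 18 other named members and 112 unnamed members; the plastid median is lowest on saliva replicate 1, at -0.27.

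Lower values were also frequent among the probe sets next in brightness. In 10 equal bins by control mean, the median difference lay between -0.0089 and 0.054 in the 9 dimmer bins and was -0.066 in the brightest, where 65.3% were lower. The probe sets ranked 151 to 300 had a median of -0.076 with 107 of 150 lower, and those ranked 301 to 450 had -0.094 with 101 lower. Within the 150, the 50 brightest had a median of -0.11, the next 50 of -0.12 and the last 50 of -0.10. The bins were formed on control values too, and no test of their order was made.

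**Figure D3:**
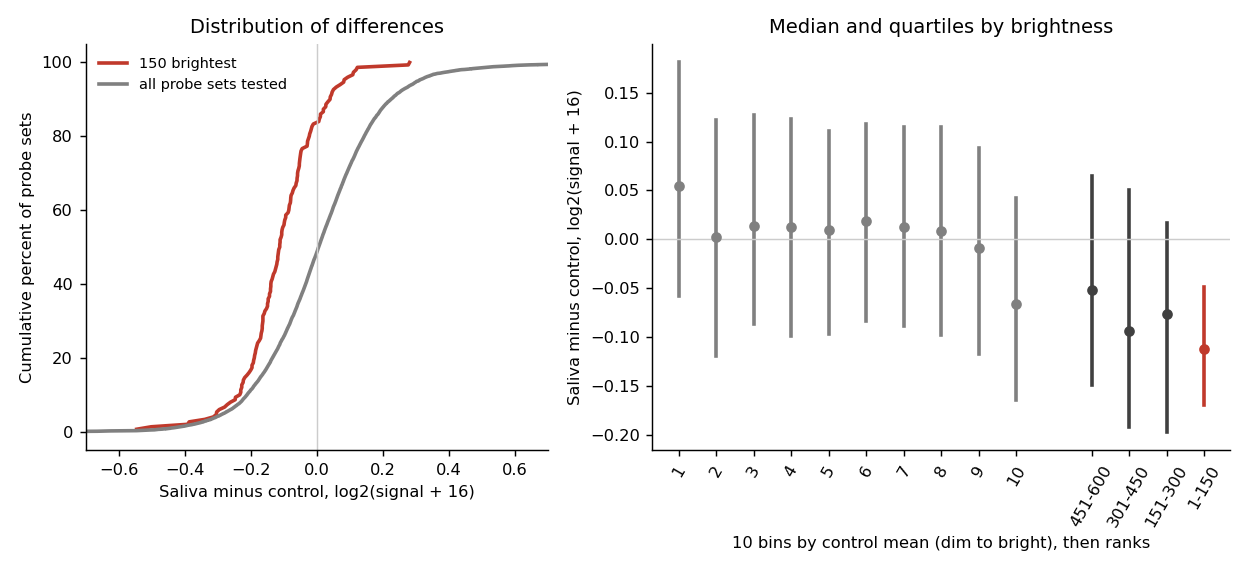
Left, cumulative percent of probe sets by saliva minus control difference for the 150 brightest and for all 13647 tested. Right, median (point) and quartiles (line) of the difference in 10 bins by control mean and then for successive groups of 150 ranks; the 150 brightest have a median of -0.11 and quartiles of -0.17 and -0.049.

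Light harvesting in the set was represented by LHCB4.1 and LHCB4.2, whose proteins form the minor antenna CP29 that links the outer light-harvesting complexes to photosystem II. LHCB4.1 had signals of 5403, 6272 and 6161 with saliva, against 6769, 7113 and 6738 in controls. The groups did not overlap, and the difference was -0.21 ± 0.090 (SE; limma adjusted p = 0.445). LHCB4.2 had 3474, 3530 and 3812 with saliva, against 3486, 3832 and 3874 in controls. Its groups overlapped, and its difference of -0.049 ± 0.090 turned to 0.055 under quantile normalization. The LHCB4.1 difference was -0.11 under quantile normalization. The third gene of that family, LHCB4.3, was much dimmer and outside the set. It had 483, 364 and 426 with saliva, against 556, 538 and 627 in controls, a difference of -0.43 ± 0.12 (limma adjusted p = 0.195).

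Photosystem II itself had PSBY, PSBW and AT1G51400, which encode small subunits, and PSB27, which acts in its assembly and repair. PSBY had 3530, 3400 and 3700 with saliva, against 4277, 4170 and 4295 in controls. These groups were well apart, with a difference of -0.26 ± 0.086 (SE; limma adjusted p = 0.275), or 0.834 times the control level. PSBW had 2663, 3035 and 3240 with saliva, against 3312, 3331 and 3336 in controls, also without overlap. Its 3 control values were nearly equal, and its difference was -0.16 ± 0.096, but -0.085 without saliva replicate 1 and -0.058 under quantile normalization. AT1G51400 had 3739, 3439 and 3138 with saliva, against 3098, 3477 and 3439 in controls, and its groups overlapped. PSB27 had 2538, 2836 and 2486 with saliva, against 2949, 3356 and 2683 in controls, overlapping through 1 saliva array and 1 control array.

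Photosystem I was represented by PSAE-1, a subunit at the docking site of ferredoxin, and PSAN, a subunit on the lumen side. PSAE-1 had 5449, 6099 and 4650 with saliva, against 4817, 5868 and 5028 in controls. PSAN had 3505, 3452 and 3946 with saliva, against 4072, 3704 and 4112 in controls. Both overlapped, with differences of 0.040 ± 0.11 for PSAE-1 and -0.13 ± 0.094 for PSAN (-0.024 under quantile normalization).

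The other 3 thylakoid genes were ATPC1, of the plastid ATP synthase, AT4G01150, whose protein CURT1A bends thylakoid membranes, and PIFI, which acts in chlororespiration. ATPC1 had 3702, 4362 and 4559 with saliva, against 4644, 4883 and 4621 in controls. The groups did not overlap, and the difference of -0.17 ± 0.098 was -0.080 without saliva replicate 1 and -0.058 under quantile normalization. AT4G01150 and PIFI overlapped, with differences of -0.16 ± 0.10 and -0.19 ± 0.12 that were -0.10 and -0.11 without saliva replicate 1, and -0.080 and -0.12 under quantile normalization. In all, 9 of the 11 thylakoid genes were lower with saliva, with a median of -0.16, and 0 of them passed the limma test over all probe sets, while 2 were lower at an unadjusted p under 0.05, as were 4.82% of all tested probe sets. Under quantile normalization 8 of the 11 were lower, with a median of -0.058.

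Carbon fixation had RCA, which encodes the activase that frees RuBisCO of bound sugar phosphates, and PRK, the phosphoribulokinase that regenerates the substrate of RuBisCO. PRK had 3257, 3290 and 3819 with saliva, against 4235, 4058 and 3870 in controls. The highest saliva value lay just under the lowest control value, and the difference was -0.23 ± 0.095 (SE; limma adjusted p = 0.418), or -0.14 under quantile normalization. RCA had 4948, 5652 and 5510 with saliva, against 5305, 5607 and 5721 in controls, a difference of -0.048 ± 0.090 with overlap that turned to 0.046 under quantile normalization. HPR, the peroxisomal hydroxypyruvate reductase of photorespiration, had 3040, 3389 and 3422 with saliva, against 3905, 3713 and 3374 in controls. Its groups overlapped, and its difference of -0.16 ± 0.095 was -0.10 without saliva replicate 1 and -0.068 under quantile normalization.

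The same pathways could be followed outside the set in 6 named genes of the lists: LHCB4.3, given above, and 5 others. All 6 were lower with saliva, under quantile normalization as well. They lie in the brightest of the 10 bins by control mean, where 65.3% of the probe sets were lower. SBPASE, the sedoheptulose bisphosphatase of the Calvin cycle, lay just under the limit with 2033, 2040 and 2004 with saliva, against 2344, 2442 and 2257 in controls. Its groups did not overlap (difference -0.21 ± 0.088, limma adjusted p = 0.428, and -0.12 under quantile normalization). The glycerate kinase gene AT1G80380 of photorespiration differed by -0.30 ± 0.13, and AT1G56190, AT1G32470 and AT1G11860 by -0.16, -0.20 and -0.13, all with overlap. Over the lists, 15 of the 17 genes were lower, 13 of 17 under quantile normalization, and 0 passed an adjusted p of 0.05 in limma, while 6 of the 17 had an unadjusted p under 0.05, where 4.82% of all tested probe sets were lower and 5.39% higher at that level. As 11 of the 17 are members chosen by control values, no support is drawn from these counts.

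Of the other plastid genes, AT3G11630 had the most negative difference of all 150. It encodes 2-Cys peroxiredoxin A, which breaks down peroxides in the chloroplast and is reduced by thioredoxins. It had 1335, 1983 and 2033 with saliva, against 2825, 2504 and 2386 in controls. The groups did not overlap, saliva replicate 1 was far below the other saliva arrays, and the difference was -0.55 ± 0.14 (SE; limma adjusted p = 0.179), or 0.685 times the control level. Without saliva replicate 1 it was -0.35. AT5G24490, which encodes a putative protein of the plastid ribosome, had 2236, 2397 and 2018 with saliva, against 2906, 2575 and 2307 in controls, a difference of -0.22 ± 0.11 with overlap. THIC, which makes the pyrimidine part of thiamine, and ATHM2, an m-type thioredoxin gene, differed by -0.094 ± 0.12 and -0.060 ± 0.098.

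The 7 stress and defence genes lay close to their control levels, with a median difference of -0.023 and 4 of 7 lower (0.044 and 1 of 7 under quantile normalization). AT1G13930, which takes part in the salt response, had 5216, 6791 and 5998 with saliva, against 6023, 6686 and 6581 in controls. ECS1 had 5969, 6915 and 7580 with saliva, against 6133, 7496 and 7136 in controls. PRXR1, a class III peroxidase gene, had 4862, 5312 and 5280 with saliva, against 4981, 5128 and 5216 in controls. In each of these the groups overlapped, and the differences were -0.11, -0.023 and 0.011. AILP1, an aluminium-induced-like gene, had the most positive difference of the named genes, with 2774, 2783 and 3180 with saliva, against 2639, 2568 and 2872 in controls (difference 0.11 ± 0.096, overlapping). AT2G41090, for a calmodulin-like protein, AT1G54410, for the dehydrin HIRD11, and AT3G62550, of the universal stress protein family, differed by -0.072, -0.053 and 0.059.

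Among the secreted proteins and protease, AT2G45180 of the lipid-transfer superfamily, AT1G78040 of the pollen Ole e 1 family and AT4G16190, a papain-type protease gene, differed by 0.0061, -0.052 and 0.081, all with overlap. GAPC2, the cytosolic glyceraldehyde-3-phosphate dehydrogenase of glycolysis, was the only named gene outside the plastid groups whose saliva and control values did not overlap. It had 3293, 3202 and 3083 with saliva, against 3542, 3404 and 3361 in controls, a difference of -0.11 ± 0.086 (limma adjusted p = 0.727) that was -0.0027 under quantile normalization. CCL differed by -0.087 and AT1G09310 by -0.11. The other 5 genes with no role given differed by -0.050 to 0.051, all with overlap.

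**Figure D4:**
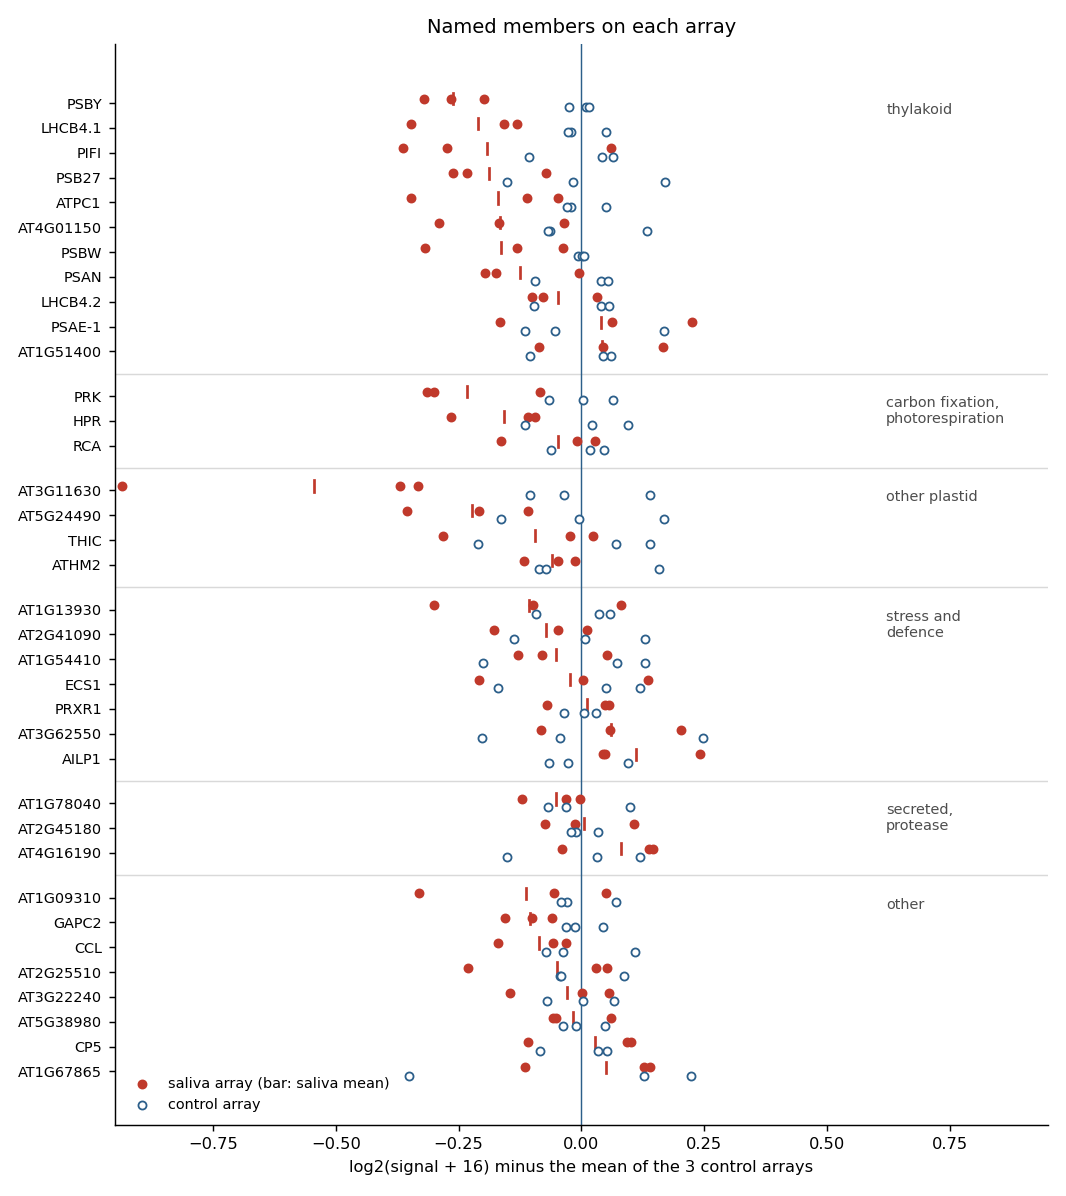
Each of the 36 named members on each array as log2(signal + 16) minus the mean of its 3 control arrays, with saliva arrays as filled points, saliva means as bars and control arrays as open points. Most plastid genes in the 3 upper groups lie left of 0 with saliva, AT3G11630 farthest at -0.55, while the lower 3 groups lie around 0.

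Set side by side, 16 of the 18 plastid genes were lower with saliva, with a median of -0.16, and 11 of the 18 other named genes, with a median of -0.026. Under quantile normalization the plastid median was -0.063, with 13 of 18 lower, and that of the other named genes turned to 0.067, with 2 of 18 lower. Without saliva replicate 1 the plastid median was -0.10, with 16 of 18 lower, and that of the other named genes 0.0070, with 8 of 18 lower. The plastid median was -0.27, -0.11 and -0.067 on saliva replicates 1, 2 and 3, and 0.0020, 0.019 and -0.041 on control replicates 1, 2 and 3. That of the other named genes was -0.066, 0.050 and -0.045 on saliva replicates 1, 2 and 3, and -0.0041, 0.033 and -0.026 on control replicates 1, 2 and 3. The median of the unnamed members was -0.18, -0.092 and -0.064 on saliva replicates 1, 2 and 3, and 0.0058, 0.0069 and -0.013 on control replicates 1, 2 and 3. By these medians the saliva and control arrays did not overlap for the plastid genes and for the unnamed members, and overlapped for the other named genes. As the control arrays chose the members and gave the reference level, no support is drawn from this either. Gene by gene, 6 of the 18 plastid genes (33.3%) had all saliva values below all control values. So did 29.5% of the unnamed members, 5.56% of the other named genes, 20% of the probe sets ranked 151 to 300 and 7.72% of all tested. As the groups were formed after the members were known, the gap between them was not tested.

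The 112 unnamed members had a median of -0.12, with 97 lower (-0.029 and 68 lower under quantile normalization). Among them, 251305_at had the smallest adjusted p of the 150. It had 2732, 2648 and 2909 with saliva, against 3975, 3929 and 3838 in controls. All 3 saliva values were far under the controls, and the difference was -0.50 ± 0.087 (SE; limma adjusted p = 0.0578), or 0.707 times the control level. Of the alternatives, it passed only with array weights, at -0.52 and a limma adjusted p of 0.0272. With those weights 53 of the 13647 probe sets tested passed, against 8 without them. The adjusted p of 251305_at ran from 0.0272 to 0.376 over the alternatives, the highest with no filter on dim signals. Next were 264371_at and 255046_at, at -0.39 ± 0.094 and -0.39 ± 0.086 (limma adjusted p = 0.143 and 0.124). The most positive were 247627_at and 267461_at. The first had 4680, 4157 and 5059 with saliva, against 3539, 3581 and 4315 in controls, a difference of 0.28 ± 0.11 with overlap (limma adjusted p = 0.371). The second had 2542, 3544 and 3214 with saliva, against 2487, 2509 and 2603 in controls, a difference of 0.28 ± 0.12, also with overlap. The 1 probe set with all saliva values above the controls was 262832_s_at, at 3070, 3292 and 2875 with saliva, against 2862, 2866 and 2821 in controls. The unnamed probe sets singled out here were chosen after their values were seen.

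A difference of over 0.3 on the log2 scale in either direction was seen in 8 of the 150, or 5.33%, all lower, against 9.47% of all tested probe sets. The 2 probe sets with several genes differed by 0.027 and -0.11.

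The trimmed mean signal was 100.01 on all 6 arrays. Saliva replicate 3 had the lowest mean correlations of the 6 arrays, 0.9798 with the other saliva arrays and 0.9767 with the control arrays, while saliva replicate 1 had 0.9832 and 0.9837. The summed signal of saliva replicate 1, 3252497, was the lowest of the 6, which ran up to 3381044. For GAPDH, the 3-prime control probe set exceeded the 5-prime one, a measure of RNA quality, by a log2 ratio of 0.351, 0.645 and 0.443 on saliva replicates 1, 2 and 3, and 0.426, 0.608 and 0.506 on control replicates 1, 2 and 3, so the groups overlapped. Of 21 markers of leaf, root, flower, seed, phloem and guard cells, 5 were named. The leaf gene RCA averaged 5370 with saliva and 5544 in controls, the guard cell gene FMA 46.8 in both groups, and the root genes PYK10, EXPA7 and EXPA18 4.43, 7.39 and 2.70 with saliva and 6.07, 4.49 and 2.54 in controls, under the filter on dim signals. The part of the array scale or of saliva replicate 1 in the small negative differences was not tested beyond the values without that array and under quantile normalization.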

How the data were processed

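Probe set signals of 6 Affymetrix ATH1 arrays were analysed. The deposited table holds each probe set's intensity on every array, not log-transformed. Per the submitters' processing notes MAS5, GCOS and limma were used, with no roles or versions given in the sources used here. The signals of each array had a mean of 100.01 without the lowest and highest 2%, so this scaling was kept. No detection calls or scanner values were used, and 0 columns belonged to other samples. The small number of arrays limits the precision.

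After removal of 64 Affymetrix controls, log2(signal + 16) was taken for 22746 probe sets, and a filter on the mean over the 6 arrays removed the dimmest 40%, which kept 13647. The group effect was fitted with limma 3.58.1 under R 4.3.3 (lmFit, then eBayes using a mean-variance trend), two-sided, with Benjamini-Hochberg adjustment over all 13647. Values after ± are standard errors of this fit. In 10 simulations of saliva against control with 13647 probe sets, the fit recovered 51.4% of changes of 0.5 and 99.6% of changes of 1 on the log2 scale, and 6.01% of its calls were false. Each simulation planted 200 changed probe sets in independent normal noise with the variances of the fit. The data gave 8 calls over the whole table, so these rates need not hold for them.

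The 150 members are the probe sets with the highest control mean, without 246004_at and those numbered 244901 to 245055. Members, role groups and gene lists were chosen with earlier results of these data known, and the list entries come from general knowledge without a source to check them. Names are those of the platform's annotation, brought up to date by gene ID with RefSeq's table for TAIR10.1: 13513 probe sets have 1 gene, 503 several and 8730 are unnamed here. For 1 member, AT1G67865, the RefSeq table had no match and the platform's name was kept. Named by rule were the 12 brightest members, the photosystem II class as the one class with at least 3 named members, the 8 most negative and 8 most positive named members by non-overlap and then p, and 3 probe sets on each side of the limit. The other named members were added after their values were seen. Alternatives were the log offset, the filter, the scaling, the choice and number of members, a replicate block, the variance model, array weights and each array left out. Alternatives for the counts and for role groups, and the filter settings for single genes, were added after seeing the data.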

Additional observations from a re-analysis of the deposited data

How the results depend on the processing

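Of the 150 members, 0 passed an adjusted p of 0.05 in limma under each alternative but array weights, where 1 passed, 251305_at at -0.52 (adjusted p = 0.0272). The count was 0 in all 6 fits that left out 1 array. Over the whole table the count of probe sets passed was 8 of 13647, and from 1 to 53 under the alternatives, with the 53 under array weights. The median difference of the members was -0.11 and moved to -0.013 with quantile normalization, which by construction holds the brightest ranks nearly equal. Over the fits that left out 1 array it lay between -0.13 and -0.067, the value without saliva replicate 1. The share of the summed signal held by the members was 17.9% with saliva and 18.8% in controls, a difference of -0.953 percentage points (-1.21 to -0.584 with 1 array left out). Choice on the control arrays favours a larger control share, and with members chosen by the saliva mean the difference was -0.766. With quantile normalization the share was 18.3% and 18.4%, a difference of -0.123 percentage points, which the method fixes by giving all arrays one distribution. Members without overlap and lower were 41 (27.3%, against 7.72% of all tested), and 15 of 150 with quantile normalization, near the 8.24% of all tested there. Members with an unadjusted limma p under 0.05 were 24, and 13 with no filter, 13 with no mean-variance trend and 11 with quantile normalization. Of these, 22, 13, 12 and 8 of the 150 were lower, in the same order. Over all tested probe sets the shares lower at that level were 4.82%, 3.82%, 4.62% and 5.28%. The cause of the other changes was not tested. The replicate numbers were not shown to pair the arrays: deviations from the group means correlated at -0.059, 0.116 and 0.152 between arrays of the same number, and 4 of the 6 arrays correlated best with the array of their own number in the other group. With the replicate block the whole table had 29 calls in place of 8, and 0 members passed.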

Other observations

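The plastid median minus that of the other named members was -0.14 in the comparison as reported and -0.14 under quantile normalization (17 plastid genes, as members were chosen anew), where both medians stood higher. Without single arrays it ran from -0.18 without saliva replicate 3 to -0.11 without saliva replicate 1. Both groups were of like brightness, and quantile normalization moves probe sets of like signal by similar amounts. The gap could therefore hardly change under it, and no support is drawn from its value there. The role groups were formed after the members were known, so these are values without a test.

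The brightest probe sets carried fewer names than the array at large: 74.7% of the 150 are unnamed here, against 38.4% of all probe sets, and 11 of the 50 brightest have 1 gene.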
